A study of Mus musculus with 8 samples.

Results

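The 78 protein-coding genes whose symbols begin with Mrpl or Mrps, followed by a number and at most 1 further letter, were followed across mouse hematopoietic stem cells (HSCs) of different size. They were picked out by symbol alone, in the GENCODE M21 annotation, from 50686 gene identifiers in the deposited count table. The family itself was chosen with earlier results of these data known. Of the 78 members, 49 are Mrpl genes and 29 are Mrps genes. All 78 were among the 16066 genes with enough counts to be tested, so the filter on low counts removed no member.

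HSCs renew themselves and give rise to every blood lineage, and here they were compared by cell size. Marrow from C57BL/6J mice was depleted of cells with lineage markers, labelled with antibodies to CD117, Sca-1, CD48 and CD150, and sorted by light scatter; age and sex are not given in the labels. The gates for Small and Large took the lowest and the highest 10% of cells by size, the gate for Medium took cells within 10% of the mean, and All stands for unfractionated HSCs. Every group had 2 libraries, each made with a low-input kit from 10000 cells sorted in G0/1 phase. No group carried a treatment or an altered allele. Mice given PD, rapamycin or both appear in the design of the series, but their HSCs were not analysed here. The titles number the libraries of a group 1 and 2, and do not say whether these are separate animals, so p-values measure only how these samples spread, and that spread may be technical.

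Mitochondria make the proteins encoded by their own small genome on a ribosome of their own, the mitoribosome. Its RNAs come from the mitochondrial genome, but all of its proteins are encoded in the nucleus, made in the cytosol and imported. Mrpl genes are named for the large subunit, which forms peptide bonds, and Mrps genes for the small subunit, which reads the messenger RNA. Its products are subunits of the respiratory chain and of ATP synthase. HSCs are known for keeping respiration low while quiescent and for raising it when they leave that state.

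The symbol does not always name the subunit. Mrps30 and Mrps18a encode proteins that sit in the mammalian large subunit, and the protein of Mrps36 belongs to the 2-oxoglutarate dehydrogenase complex. By structure, 51 members belong to the large subunit, 26 to the small subunit, and Mrps36 to neither. Of the 51, 30 have counterparts in bacterial ribosomes and 21 are mitochondrial additions; of the 26, 16 and 10 do.

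Total counts ran from 13698362 to 16838448 per library. Libraries separated first by replicate number: the 4 numbered 1 lay between -81.2 and -31.1 on the first principal component (39.5% of the variance), and the 4 numbered 2 between 0.984 (Large 2) and 106. The label was checked against 20 HSC genes such as Hlf, Mecom, Procr and Kit. All were detected in every library, with sums of 2144 to 3745 CPM in number 1 and 4305.5 to 7150.5 CPM in number 2. CPM is the count as a share of the library, scaled to 1000000 counts and between libraries by TMM. Genes of granulocytes and monocytes, 22 in all, were also detected in every library, at sums of 5208 to 67124 CPM. Every value below is a relative abundance: in such bulk libraries, fewer cells of a type and less RNA per cell cannot be told apart.

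Both subunits had their largest summed level in Large HSCs, and the ratio of the 2 sums stayed between 1.526 and 1.593. TPM, which scales counts by transcript length so that genes can be compared, was summed over each subunit. The Mrpl genes summed to 5528 and 3799 TPM in Small 1 and 2, then 5694 and 4486 in Medium, then 6593 and 5098 in Large, against 5340 and 3876 in All. The Mrps genes summed to 3479 and 2465 TPM in Small, then 3602 and 2939 in Medium, then 4139 and 3211 in Large, against 3388 and 2497 in All. Within each replicate number, Large was the highest of the 4 groups for both subunits, but every library numbered 2 lay below the library of the same group numbered 1. Groups therefore overlapped: Large 2 lay below Small 1 for both subunits.

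The ratio of summed TPM of Mrpl to Mrps genes was 1.589 and 1.541 in Small 1 and 2, then 1.581 and 1.526 in Medium, then 1.593 and 1.588 in Large, against 1.576 and 1.552 in All. Over the 8 libraries it was 1.568 ± 0.025 (SD, n = 8). With the subunits assigned by structure it was 1.777 ± 0.026, between 1.723 and 1.809. From Small to Large the ratio moved by a factor of 1.003 within number 1 and 1.030 within number 2, while the sums moved by 1.193 and 1.342 for Mrpl and 1.190 and 1.303 for Mrps genes. The 2 subunits thus moved by similar factors within each number. In every group, however, the ratio by symbol was lower in number 2 than in number 1. By structure it was 1.791 in both Large libraries. The median log2(TPM + 1) of Mrpl minus that of Mrps genes was -0.116 to -0.041 in number 1 and -0.319 to -0.186 in number 2. No test was made on these sums, ratios or medians, since a score over chosen members carries no p here.

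**Figure D1:**
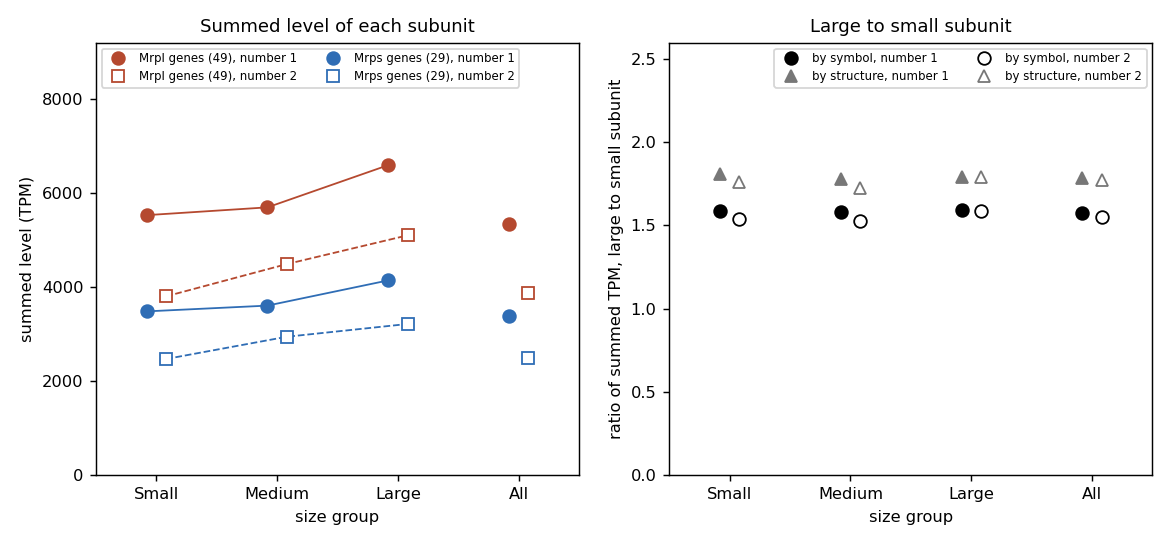
Left: summed TPM (vertical axis) of the 49 Mrpl and 29 Mrps genes in each size group (horizontal axis), filled circles for number 1 and open squares for number 2, with lines joining Small, Medium and Large of one number. Right: ratio of the large to the small subunit sum, by symbol (circles) and by structure (triangles). Sums are highest in Large within each number, and ratios by symbol stay between 1.526 and 1.593.

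Large and Small HSCs, the ends of the size distribution, were compared first. The fitted log2 fold change lay above 0 for 78 of 78 members, against 49.9% of all tested genes. Its median was 0.43 over the members and 0.00 over all tested genes, with a range of 0.01 to 0.87. Mrpl genes had a median of 0.44 and Mrps genes of 0.43. With GC content and length trends removed, 73 members were above 0, with a median of 0.33 (0.01 over all tested genes). Within number 1 the members' median was 0.35 and within number 2 it was 0.57. Of the 78 members, 76 were higher in Large than in Small within both numbers (47 of 49 Mrpl, 29 of 29 Mrps), against 32.9% of all tested genes. The exceptions were Mrpl23, lower in Large within number 1, and Mrpl9, lower within number 2. Both Large libraries lay above both Small libraries in 26 members, against 17.7% of all tested genes, and in no member were both below (14.7%). Members made from bacterial counterparts and mitochondrial additions had similar medians: 0.45 and 0.37 in the large subunit and 0.42 and 0.48 in the small subunit.

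**Figure D2:**
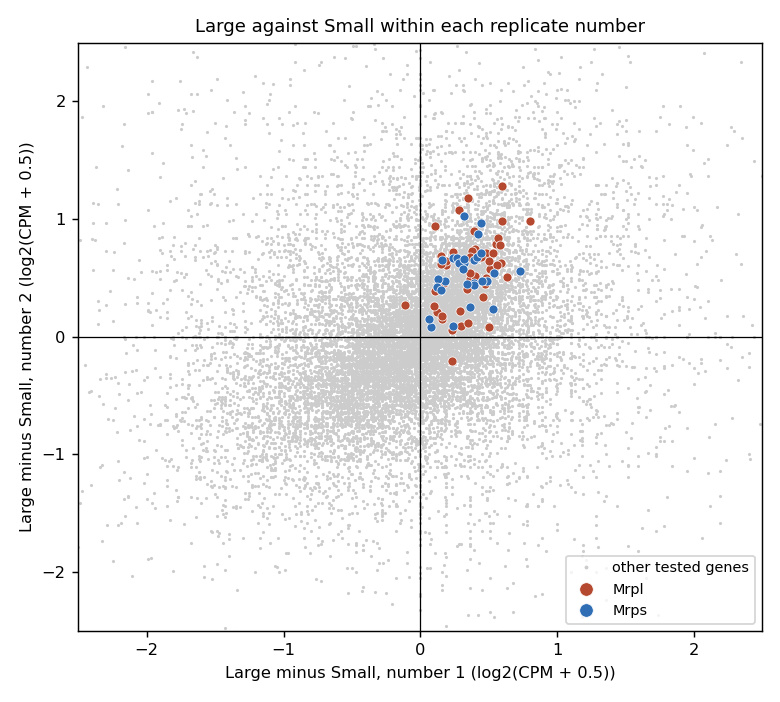
Difference of log2(CPM + 0.5), Large minus Small, within number 1 (horizontal axis) and within number 2 (vertical axis). Grey points are the other tested genes, red points Mrpl and blue points Mrps genes; 185 of the 16066 genes, none a member, lie outside the axes. Of the 78 members, 76 lie above 0 on both axes, where 32.9% of all tested genes lie.

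No single member passed the test in this comparison. The quasi-likelihood test of edgeR, with group as its only term, called none at an adjusted p of 0.05, as for all tested genes (0.0%), and the smallest adjusted p among members was 0.975. At an unadjusted p under 0.05 it gave 2 members, Mrpl39 and Mrpl28, both higher in Large, against 1.77% of all tested genes. DESeq2 and limma-voom without the block called none either (0.0622% and 0.0% of all tested genes). They had 1 and 2 members at an unadjusted p under 0.05, against 4.35% and 2.79% of all tested genes. With the replicate number as a block, edgeR still called none (smallest adjusted p = 0.074), but 42 members were higher at an unadjusted p under 0.05 (26 Mrpl, 16 Mrps), against 9.44% of all tested genes. With the block, limma-voom called 2 members, Mrpl42 and Mrpl20 (1.28% of all tested genes), and DESeq2 called 18, of which 15 were Mrpl and 3 Mrps genes (8.82% of all tested genes). The size of the median rested on single libraries: it was 0.83 without Small 1, 0.14 without Small 2, 0.20 without Large 1 and 0.66 without Large 2. Medians over all tested genes were 0.04, 0.07, 0.00 and -0.03 in the same refits. Each of these leaves 1 group with a library of only 1 number.

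**Figure D3:**
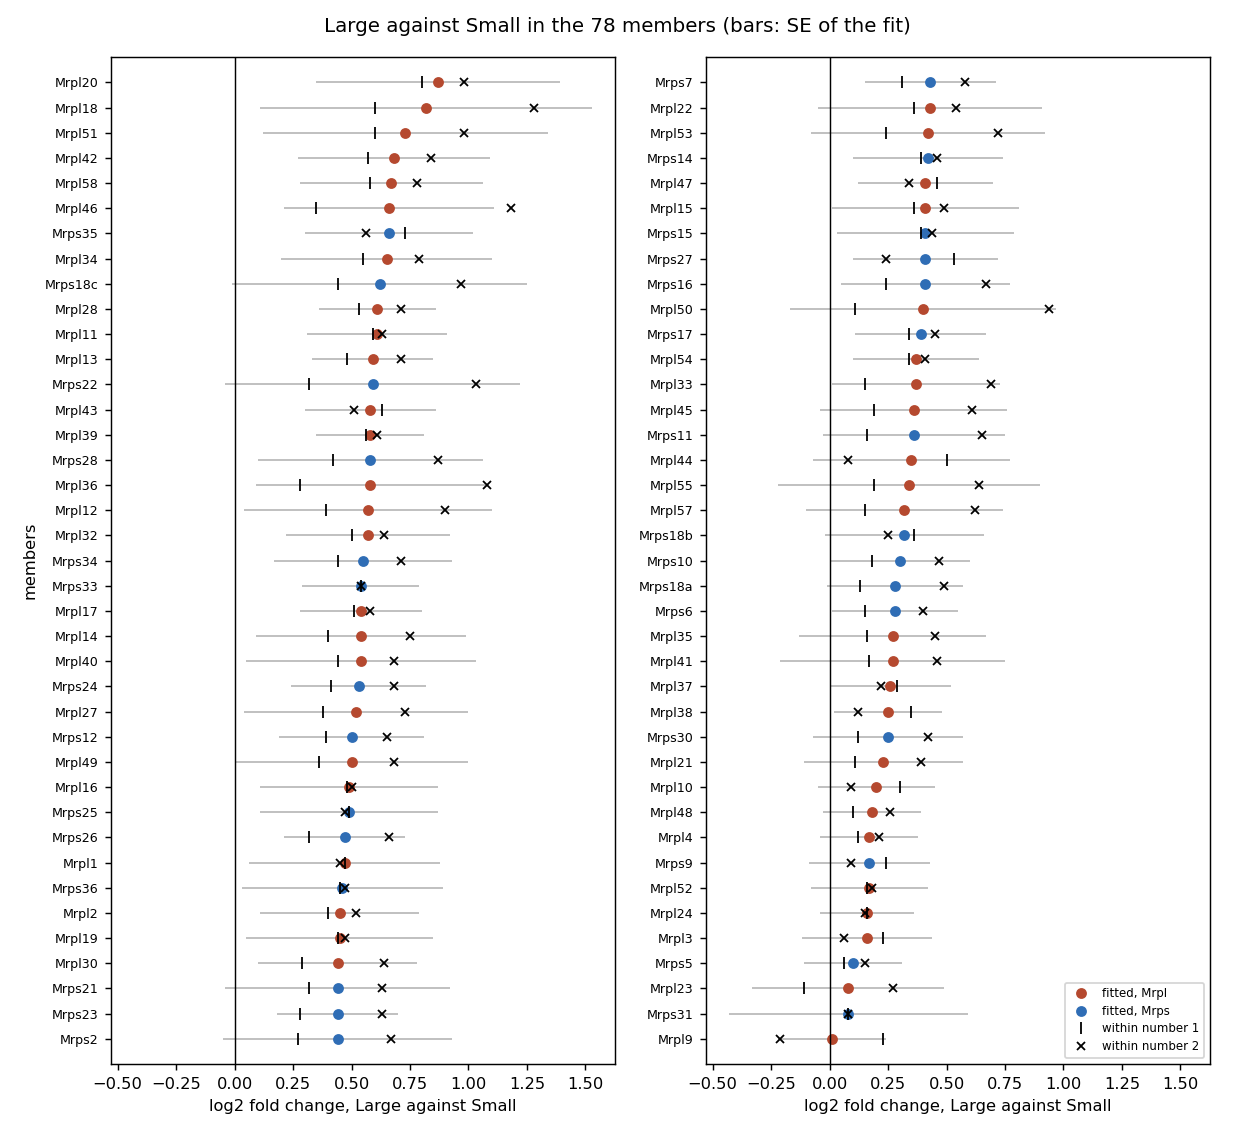
Fitted log2 fold change of Large against Small (horizontal axis) for each of the 78 members (vertical axis), red for Mrpl and blue for Mrps, with the SE of the edgeR fit as a grey bar. Vertical ticks and crosses give the difference of log2(CPM + 0.5) within number 1 and within number 2. All fitted values lie between 0.01 and 0.87, many SE bars reach 0, and only Mrpl9 and Mrpl23 have a within-number value below 0.

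The 8 members with the largest fitted difference were Mrpl20, Mrpl18, Mrpl51, Mrpl42, Mrpl58, Mrpl46, Mrps35 and Mrpl34, from 0.87 to 0.65. Mrpl20, a large subunit protein with a bacterial counterpart, had 81.5 and 41.6 CPM in Small 1 and 2, then 103 and 69.8 in Medium, then 142 and 82.6 in Large, against 101 and 43.5 in All. Both Large values lay above both Small values, and the order Small, Medium, Large held within each number. The fitted log2 difference was 0.87 (SE 0.52, edgeR adjusted p = 0.98), and 0.89 with the block (SE 0.18, adjusted p = 0.074).

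Mrpl18 encodes a protein of the central protuberance, a part of the large subunit. It had 146 and 53.2 CPM in Small, then 136 and 72.5 in Medium, then 221 and 130 in Large, against 157 and 44.1 in All. Large was highest within each number, but Large 2 lay below Small 1. The log2 difference was 0.82 (SE 0.71, edgeR adjusted p = 0.98), and 0.60 and 1.28 within numbers 1 and 2.

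Mrpl51 and Mrpl42, both mitochondrial additions to the large subunit, followed the same course. Mrpl51 had 99.1 and 41.0 CPM in Small, then 111 and 57.2 in Medium, then 150 and 81.4 in Large, against 111 and 47.0 in All (log2 0.73, SE 0.61). Mrpl42 had 155 and 90.0 CPM in Small, then 185 and 127 in Medium, then 230 and 162 in Large, against 174 and 95.01 in All (log2 0.68, SE 0.41). Both Large libraries of Mrpl42 were above both Small libraries, whereas Large 2 of Mrpl51 lay below Small 1. Leaving out 1 library moved Mrpl20 to between 0.43 and 1.43, Mrpl18 to between 0.27 and 1.73, Mrpl51 to between 0.22 and 1.5 and Mrpl42 to between 0.34 and 1.12. DESeq2 with the block gave adjusted p = 0.00071 for Mrpl42 and 0.00088 for Mrpl51, its smallest among the members.

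Mrpl58 (also called Ict1) is a peptidyl-tRNA hydrolase that releases stalled chains and is also built into the large subunit. It had 38.6 and 24.6 CPM in Small, then 39.5 and 31.7 in Medium, then 57.8 and 42.6 in Large, against 39.3 and 21.5 in All. Both Large libraries were above the 6 others. The log2 difference from Small was 0.67 (SE 0.39, edgeR adjusted p = 0.98).

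Among proteins of the flexible stalk, where translation factors bind, Mrpl12 had 126 and 57.3 CPM in Small and 165 and 107 in Large (log2 0.57, SE 0.53). Mrpl10, which anchors the stalk, had 64.6 and 66.3 CPM in Small and 79.9 and 70.6 in Large (log2 0.20, SE 0.25). Mrpl11, at the stalk base, had 38.6 and 26.4 CPM in Small and 58.3 and 41.2 in Large (log2 0.61, SE 0.30). These 3 neighbours in the structure thus spanned 0.20 to 0.61, with SEs that overlap.

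Of the 8 members with the smallest fitted difference 6 were Mrpl genes, as are 49 of all 78 members. Mrpl9, with a bacterial counterpart, had 34.3 and 37.7 CPM in Small, then 37.3 and 37.3 in Medium, then 40.2 and 32.5 in Large, against 36.4 and 41.9 in All. Its values were level over groups and numbers, and its fitted difference of 0.01 (SE 0.23) turned negative, to between -0.01 and -0.20, under 6 other fits, and also without Large 1 (-0.15) or without Small 1 (-0.05). Mrpl23 had 9.59 and 7.71 CPM in Small and 8.86 and 9.40 in Large (log2 0.08, SE 0.41). It was the least abundant member, with a mean of 9.9 CPM.

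Mrpl3 and Mrpl4, core proteins of the large subunit, had log2 differences of 0.16 (SE 0.28) and 0.17 (SE 0.21). Mrpl4 had 109 and 115 CPM in Small, then 96.6 and 117 in Medium, then 119 and 133 in Large, against 91.8 and 118 in All, and was the member whose libraries numbered 2 lay highest against number 1. Mrpl24 and Mrpl52 had 0.16 (SE 0.20) and 0.17 (SE 0.25). In the small subunit, Mrps31 had 30.2 and 21.5 CPM in Small and 31.9 and 22.8 in Large (log2 0.08, SE 0.51), and Mrps5 had 75.6 and 63.5 in Small and 79.0 and 70.3 in Large (log2 0.10, SE 0.21). With GC content and length trends removed, the fitted differences of Mrps31, Mrpl24 and Mrpl52 were below 0, at -0.07, -0.07 and -0.03.

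The 3 paralogs Mrps18a, Mrps18b and Mrps18c sit at different places: the first is a large subunit protein, the others are in the small subunit. Mrps18a had 75.1 and 45.8 CPM in Small and 82.5 and 64.4 in Large (log2 0.28, SE 0.29). Mrps18b had 94.3 and 60.3 in Small and 121 and 71.7 in Large (log2 0.32, SE 0.34). Mrps18c had 96.0 and 40.2 in Small and 131 and 79.2 in Large (log2 0.62, SE 0.63). Groups overlapped in all 3. Mrps30, the other member named for the wrong subunit, had 0.25 (SE 0.32). Mrps36, the dehydrogenase component, had 61.7 and 38.3 CPM in Small and 84.7 and 53.1 in Large (log2 0.46, SE 0.43), within the range of the mitoribosomal members.

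**Figure D4:**
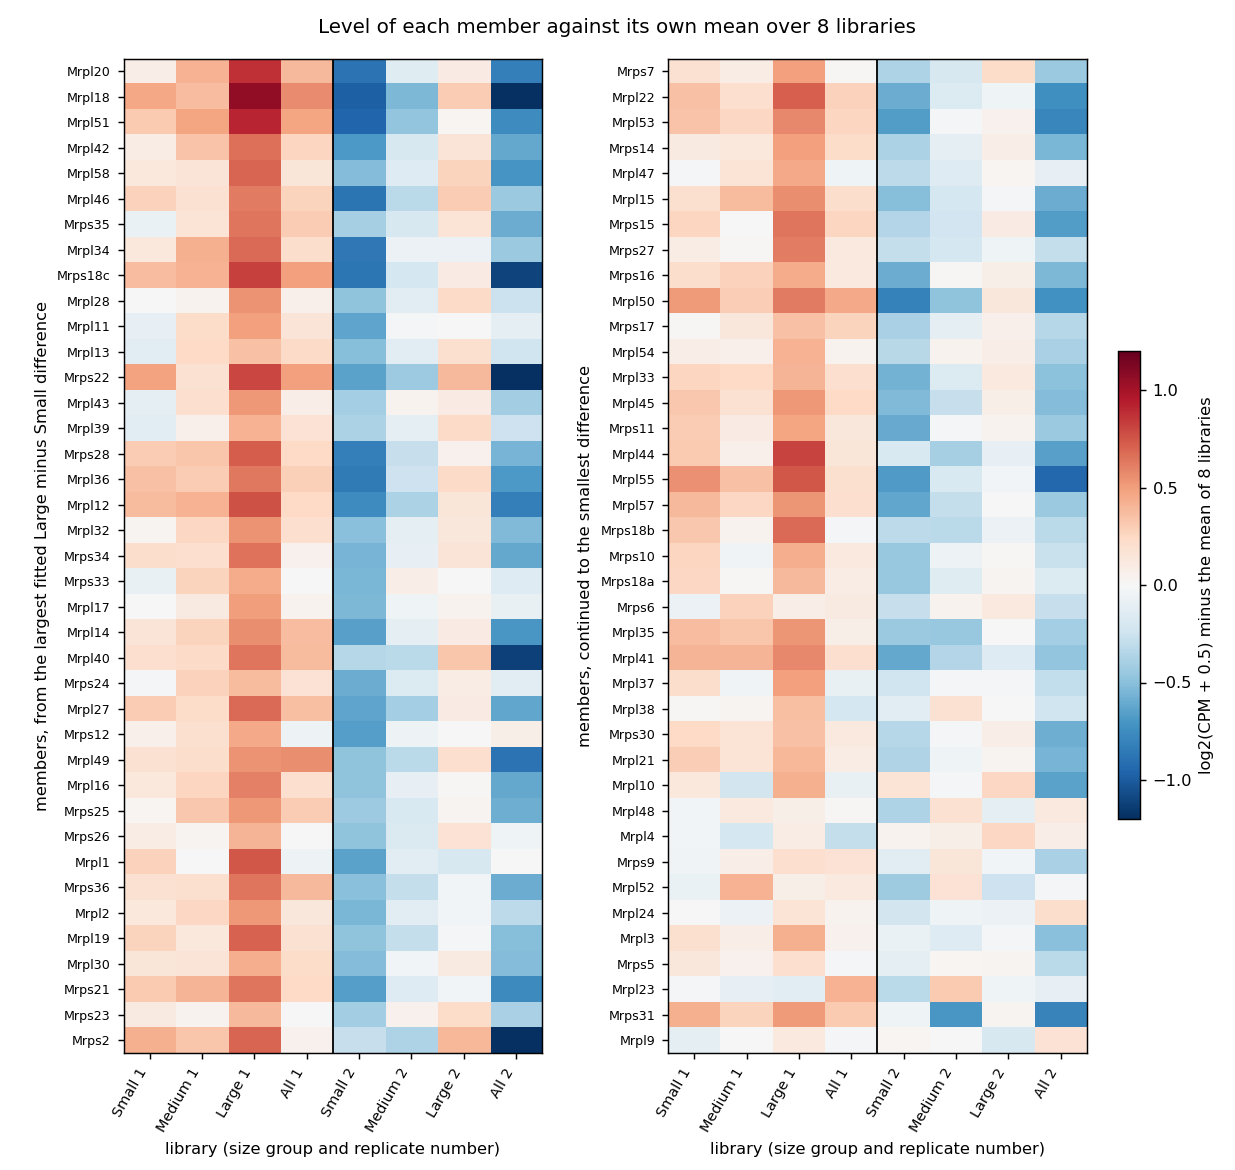
Colour gives log2(CPM + 0.5) of each member minus its own mean over the 8 libraries, red above and blue below. Rows are the 78 members, from the largest fitted Large minus Small difference (top left) to the smallest (bottom right), and columns are the libraries, number 1 left of the black line. Large 1 is the reddest column, Small 2 and All 2 are the bluest, and Mrpl9, Mrpl4 and Mrpl23 show little of the common pattern.

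Short promoter stretches of 5 members are shown, with the motif in capitals where the printed stretch holds one. They are 3 members with a difference above the members' median and different motifs, Mrpl9 as a level member with a motif, and the stretch between 2 members that face each other. Bases are from RefSeq on GRCm38.p6, 5′ to 3′ on the plus strand, which is also the strand of these 5 genes, and each stretch ends at or before the gene's start.
Mrpl20 (chr4:155802758-155802877, an E-box): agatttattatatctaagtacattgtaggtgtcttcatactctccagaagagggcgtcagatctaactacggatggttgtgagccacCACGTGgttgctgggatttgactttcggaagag
Mrpl51 (chr6:125192101-125192164, an ETS motif): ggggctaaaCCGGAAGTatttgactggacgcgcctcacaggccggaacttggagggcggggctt
Mrpl12 (chr11:120484517-120484612, an NRF1 motif read on the minus strand): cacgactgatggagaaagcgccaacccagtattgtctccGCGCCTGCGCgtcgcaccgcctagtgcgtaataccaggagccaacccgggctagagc
Mrpl9 (chr3:94443216-94443324, an NRF1 motif): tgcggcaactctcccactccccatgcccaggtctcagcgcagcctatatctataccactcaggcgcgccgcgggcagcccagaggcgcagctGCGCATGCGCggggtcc
Mrps11 (chr7:78783090-78783118, between the RefSeq starts of Mrps11 and Mrpl46): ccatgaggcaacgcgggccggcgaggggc
Mrpl12 and Mrpl9 are 2 of the 13 members with an NRF1 motif in a searched window, and their fitted differences were 0.57 and 0.01. They were picked for display with these values known, so the pair says nothing about the motif. The searched window of Mrps11 also holds a match to the YY1 motif given below, at position -108 from its start, outside the printed stretch.

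NRF1, GABP (an ETS factor) and YY1 are known regulators of nuclear genes for mitochondria, and MYC binds E-boxes. Motifs were searched on both strands of the RefSeq windows of 300 bases around each start (75 windows of 69 members; 9 members had none). Counted by gene, the NRF1 motif, GCGCA and GCGC with any base between them, was in a window of 18.8% of these members and of 7.17% of all protein-coding genes. The ETS motif CCGGAAGT was in 17.4% against 5.69%, the YY1 motif AANATGGCG in 15.9% against 3.64%, and the E-box CACGTG in 7.25% against 8.91%. Any of the 4 was found for 50.7% of these members and 21.8% of all protein-coding genes. The latter include genes without enough counts to be tested here, and no share over tested genes was computed. The motifs can overlap or share a window, and member windows had a median GC content of 58.7% against 56.3%. Members with and without a motif had medians for Large against Small of 0.44 and 0.42 (NRF1, 13 with), 0.50 and 0.43 (ETS, 12 with), 0.41 and 0.44 (YY1, 11 with) and 0.58 and 0.42 (E-box, 5 with). A match is a description of letters and not a binding site, and these medians were not tested.

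Many members share their start region with a gene on the other strand. A protein-coding gene starts head to head within 1000 bases for 33 of 78 members (42.3%), against 16.0% of all tested protein-coding genes. Mrpl46 and Mrps11 face each other and make a pair with a member of each subunit, at log2 0.66 and 0.36 for Large against Small; in GENCODE M21, unlike in RefSeq, a longer Mrpl46 transcript makes these genes overlap. Of the 31 partners that are not members, 28 were tested. Of these 28, 14 had a fitted value above 0 and 13 were higher in Large within each of the numbers, against 49.9% and 32.9% of all tested genes, with a median of 0.02 and a range of -0.92 to 0.97. The members facing them had a median of 0.44. Mrpl18 (0.82) faces Tcp1, a chaperonin subunit, at 0.51, and Mrpl51 (0.73) faces Ncapd2, a condensin subunit, at 0.71, whereas Mrps34 (0.55) faces Eme2 at -0.80. These partners were picked after their values were seen. Of the members, 42 overlap another annotated gene, 26 of them a protein-coding one; whether counting used strand was not stated, so reads of such pairs may be mixed.

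Medium HSCs, of mean size, lay between Small and Large in number 2 and close to Small in number 1. In Medium against Small the fitted value was above 0 for 63 members, against 49.0% of all tested genes, with a median of 0.16 (-0.01 over all tested genes). With GC content and length trends removed the median was 0.06 (-0.03 over all tested genes) and 49 members were above 0. From log2(TPM + 1) the median was 0.11 (-0.04 over all tested genes) and 58 members were above 0. The median was 0.01 within number 1 and 0.34 within number 2, and 39 members were higher in Medium within both, against 30.1%. In Large against Medium, 72 members were above 0, against 48.8%, with a median of 0.29 (-0.01 over all tested genes), 0.34 within number 1 and 0.19 within number 2. From log2(TPM + 1) the median was 0.19 (-0.09 over all tested genes). Here 68 members were higher in Large within each of the numbers, against 32.9%. By edgeR no member passed either comparison (0.0% of all tested genes). With the block, 7 members were higher in Medium than in Small (6.11% of all tested genes) and 16 higher in Large than in Medium (8.18%) at an unadjusted p under 0.05, and without it none was (2.81% and 0.878%). With the block, DESeq2 called 1 member, Mrpl18, in Large against Medium (5.75% of all tested genes) and none in Medium against Small (3.22%), and limma-voom called none in either (0.0%). Without the block limma-voom again called none (0.0%), nor did DESeq2 in Large against Medium (0.0124%) or in Medium against Small (0.261%).

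The order Small, Medium, Large held within number 1 for 37 members, against 15.7% of all tested genes, and within number 2 for 62, against 18.7%. It held within both numbers for 33 members (22 Mrpl, 11 Mrps), against 5.75%. Large was the highest of all 4 groups within both numbers for 66 members, against 15.2%. The 2 steps were therefore uneven between numbers, and they share the Medium libraries. Without Medium 2 the median of Large against Medium was 0.09, and without Large 1 it was 0.02 (0.01 and -0.01 over all tested genes). That of Medium against Small was 0.53 without Small 1, -0.16 without Small 2, 0.00 without Medium 1 and 0.33 without Medium 2. Over all tested genes these last medians were 0.06, 0.04, -0.01 and 0.00.

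Some members departed from this order. Mrpl52, a mitochondrial addition to the large subunit, had 38.4 and 30.1 CPM in Small, then 54.3 and 45.9 in Medium, then 42.9 and 34.1 in Large, against 44.1 and 40.4 in All. Both Medium libraries were above the 6 others, and the fitted log2 values were 0.55 for Medium against Small (SE 0.25) and -0.38 for Large against Medium (SE 0.25). Mrpl20 and Mrpl34 (both 0.49) and Mrps33 (0.48) had the next largest values for Medium against Small. The lowest there were Mrps31 (-0.35), Mrpl10 (-0.26), Mrpl44 (-0.24) and Mrps18b (-0.17).

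For Large against Medium the highest were Mrpl18 (0.75), Mrps22 (0.71), Mrpl44 (0.58) and Mrps2 (0.53). Mrpl44, whose protein has the fold of RNase III, had 66.6 and 47.3 CPM in Small, then 56.0 and 40.5 in Medium, then 94.7 and 50.04 in Large. Of the 3 size fractions, Medium was thus the lowest within each number. Besides Mrpl52, values below 0 were those of Mrpl23 (-0.22), Mrpl48 (-0.17) and Mrps6 (-0.06) among the 4 lowest. SEs of the members named for these steps ran from 0.21 to 0.71, and none of these values passed the test (edgeR adjusted p of 0.99 for Large against Medium and 1.0 for Medium against Small).

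By their medians over all libraries, members in unfractionated HSCs lay nearer to Small than to Large. Without All 2, however, the medians against All were -0.30 for Small and 0.14 for Large (0.00 and 0.03 over all tested genes). In Small against All, 37 members were above 0, against 46.5% of all tested genes, with a median of -0.01, and the sign of that median depended on the scaling (0.01 with DESeq2's size factors). In Medium against All, 65 were above 0, against 47.8%, with a median of 0.15 (0.03 and 0.33 within numbers 1 and 2). In Large against All, 73 were above 0, against 47.5%, with a median of 0.42 (0.35 and 0.57), and 69 were higher in Large within each of the numbers, against 31.2%. The 3 comparisons share the All libraries, and the first and the last also share libraries with Large against Small. By edgeR none passed in any of the 3 (0.0% of all tested genes), and 1 member in Large (1.34%), 0 in Small (1.65%) and 0 in Medium (0.79%) had an unadjusted p under 0.05 as higher. Without the block limma-voom called none (0.0%), nor did DESeq2 in Large (0.0498%), Small (0.124%) or Medium (0.0373%). At an unadjusted p under 0.05 with the block, edgeR gave 44 members higher in Large than in All (10.7% of all tested genes), 1 in Medium (2.32%) and 2 in Small (5.96%). With the block DESeq2 called 19 members in Large against All (10.1% of all tested genes) and none in Small (2.3%) or Medium (0.0809%).

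Mrps2, a small subunit protein with a bacterial counterpart, had the largest value against All in each of the 3 comparisons. It had 62.4 and 38.2 CPM in Small, then 58.8 and 35.8 in Medium, then 75.5 and 61.3 in Large, against 48.1 and 19.3 in All. All 2 was the lowest library and All 1 the lowest within number 1. The fitted log2 value of Large against All was 1.02 (SE 0.49, edgeR adjusted p = 0.88, and 0.089 with the block). Those of Small and Medium against All were 0.58 and 0.49 (SE 0.49 each). The next highest were Mrpl18 in Large (0.81), Mrpl10 in Small (0.49) and Mrpl55 in Medium (0.38). The lowest were Mrpl11 (-0.37) and Mrpl23 (-0.36) in Small, Mrpl24 (-0.19) and Mrpl9 (-0.07) in Medium, and Mrpl23 (-0.29) and Mrpl52 (-0.13) in Large. Leaving out 1 library moved the median of Small against All to between -0.42 (without Small 1) and 0.43 (without All 1), that of Large against All to between 0.14 (without All 2) and 0.83 (without All 1), and that of Medium against All to between -0.12 (without All 2) and 0.57 (without All 1).

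The replicate number, the other label that libraries share, went with lower levels of most members in number 2. In a fit with group and number, 52 of 78 members passed the edgeR test, and all 52 were lower in number 2 (33 Mrpl, 19 Mrps), against 12.1% of all tested genes called lower and 12.5% called higher. The median log2 value of number 2 against number 1 was -0.52 over members and 0.00 over all tested genes. It was -0.57 over Mrpl and -0.48 over Mrps genes. Members had medians of -0.64 in Small, -0.32 in Medium, -0.44 in Large and -0.66 in All. Of the 78, 65 were lower in number 2 in all 4 groups, against 23.1% of all tested genes, and in 35 all 4 libraries numbered 2 lay below all 4 numbered 1, against 9.19%. Only Mrpl4 (0.22, SE 0.10) and Mrpl9 (0.01, SE 0.15) had fitted values above 0. The labels do not say what the numbers stand for, so animal, day and preparation cannot be told apart. Leaving out 1 library gave medians of -0.60 to -0.47 over members. It lowered the number of calls among members and among all tested genes alike.

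The smallest adjusted p belonged to Mrpl51, whose libraries numbered 1 had 99.1 to 150 CPM and those numbered 2 had 41.0 to 81.4. Its log2 value was -1.09 (SE 0.11, edgeR adjusted p = 0.00078). Next came Mrpl12, the stalk protein, at -0.91 (SE 0.12, edgeR adjusted p = 0.0016). Mrpl18 (-1.24), Mrpl15 (-0.67), Mrpl20 (-0.88), Mrpl42 (-0.67), Mrpl41 (-0.81), Mrps21 (-0.81), Mrps28 (-0.81) and Mrps18c (-1.05) followed, all with adjusted p of 0.0027 to 0.0045. Of these 10, Mrpl51, Mrpl18, Mrpl20 and Mrpl42 were also among the 8 with the largest Large against Small values, which come from the same libraries.

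**Figure D5:**
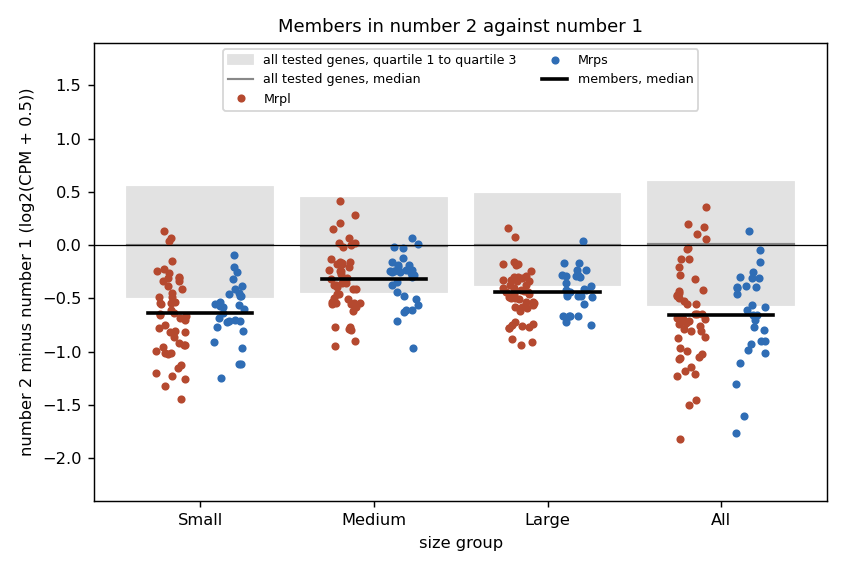
Difference of log2(CPM + 0.5), number 2 minus number 1 (vertical axis), for each member in each size group (horizontal axis), red for Mrpl and blue for Mrps. Black lines are the members' medians, from -0.66 in All to -0.32 in Medium; grey boxes span quartiles 1 to 3 of all tested genes, whose medians lie between -0.01 and 0.01.

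Most members had similar profiles over the 8 libraries. The median Pearson r of log2 CPM over all 3003 pairs was 0.85. The most alike pairs were Mrpl33 with Mrpl36 (0.998), Mrpl32 with Mrpl42 (0.996) and Mrpl32 with Mrpl20 (0.995, equal to that of Mrpl42 with Mrpl20). The least alike to the others were Mrpl9 and Mrpl4, with a median r of -0.238 and -0.230 to the other members, then Mrpl23 (0.224) and Mrpl24 (0.228). These values are descriptive, over 8 libraries that share 2 replicate numbers and 4 groups.

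Per length, the most abundant members were Mrpl33, with 221 to 456 TPM over the 8 libraries, Mrpl42 (226 to 457), Mrps14 (191 to 348), Mrps18c (126 to 390) and Mrps33 (204 to 322). Mrpl33, a small protein of the large subunit, and Mrps14, of the small subunit, both have bacterial counterparts. Mrpl33 had a Large against Small value of 0.37 (SE 0.36) and Mrps14 of 0.42 (SE 0.32). The least abundant were Mrpl23 (at most 19.9 TPM), Mrpl11 (14.9 to 26.1), Mrps31 (12.0 to 28.1), Mrpl1 (15.3 to 33.6) and Mrpl47 (23.2 to 39.7). The ranges of the 5 most and the 5 least abundant members did not overlap. The median member had a mean of 97.5 TPM, against 12.4 over all tested genes, and a longest transcript of 1866.5 bases, against 3015.

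The other proteins of the mitoribosome, which carry other names, had values within the members' range. Dap3, a GTP-binding small subunit protein, had 102 and 81.2 CPM in Small and 124 and 99.1 in Large (log2 0.28, SE 0.26). Ptcd3, an RNA-binding small subunit protein, had 143 and 89.4 in Small and 197 and 128 in Large (log2 0.48, SE 0.40). Aurkaip1 had 84.7 and 60.3 in Small and 112 and 88.2 in Large (log2 0.47, SE 0.28), the 1 of the 5 with both Large above both Small libraries. Chchd1 had 0.53 (SE 0.37) and Gadd45gip1 0.22 (SE 0.34). The median of the 5 was 0.47, 4 of 5 were higher in Large within both numbers (32.9% of all tested genes), and 4 of 5 passed the edgeR test as lower in number 2 (12.1% of all tested genes).

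Lists of genes that assemble, supply or regulate the mitoribosome had smaller medians for Large against Small. By edgeR, 0 of 12 translation factors, 0 of 25 assembly factors, 0 of 15 genes of mitochondrial transcription and RNA processing (1 more was not matched), 0 of 20 tRNA synthetases and amidotransferase subunits, and 0 of 10 regulators passed, in either direction. Of all tested genes, 0.0% passed as well. Unadjusted p under 0.05 was reached by 0 in each list too, against 1.77% of all tested genes as higher and 1.38% as lower. With the block it was reached, as higher in Large, by 3, 0, 1, 1 and 0 (9.44% of all tested genes). Their medians were 0.08, 0.18, 0.03, 0.19 and -0.17, against 0.43 over the members, and 7 of 12, 15 of 25, 7 of 15, 11 of 20 and 1 of 10 were higher in Large within each of the numbers, against 32.9% of all tested genes. These lists were not tested against the members.

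Named by the rule, Tufm, the elongation factor that brings tRNAs to the mitoribosome, had 127 and 102 CPM in Small and 178 and 127 in Large (log2 0.41, SE 0.25). Mtrf1, of the release factor family, had 0.72 (SE 0.48). Among assembly factors, the GTPase Gtpbp10 had 0.60 (SE 0.31), the rRNA methyltransferase Mrm3 0.47 (SE 0.33) and the helicase Dhx30 -0.34 (SE 0.19). Tfam, which packages the mitochondrial genome and acts in its transcription, had 0.32 (SE 0.26) and Mterf2 -0.76 (SE 0.50). Of the synthetases, Mars2 had 0.71 (SE 0.34), Lars2 0.53 (SE 0.41), Ears2 -0.68 (SE 0.39) and Vars2 -0.33 (SE 0.26). Of the regulators, the coactivator Pprc1 had 104 and 117 CPM in Small and 79.1 and 89.8 in Large (log2 -0.39, SE 0.23). Nrf1 and Gabpa, whose motifs were searched above, had 0.00 (SE 0.27) and -0.26 (SE 0.24).

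Genes of other cell types moved with the members in part. The 5 primary granule genes (Mpo, Elane, Prtn3, Ctsg and Ms4a3), made by granulocyte progenitors, summed to 20109 and 5369 CPM in Small 1 and 2, then 9359 and 4140 in Medium, then 27755 and 11503 in Large, against 9138 and 334 in All. None was at 0 in any library, and 5 of 5 were higher in Large than in Small within both numbers (median 0.89), against 32.9% of all tested genes. The 22 granulocyte and monocyte genes summed to 52203 and 15426 CPM in Small and 50632 and 27077 in Large. Of these 22, 6 were higher and 1 lower in Large within each of the numbers, against 32.9% and 30.9% of all tested genes, with a median of -0.37 within number 1 and 0.82 within number 2. The sums of both lists were lower in number 2 in all 4 groups, as were those of the members. The 20 HSC genes went the other way: 16 of 20 were lower in Large within both numbers (median -0.61), against 30.9% of all tested genes. Their part in the members' values was not tested.

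Markers of 7 other cell types differed between the numbers: every list had a median below 0 within number 1 and above 0 within number 2. The members' medians were above 0 within both. This shift between numbers was not tested. Medians for Large against Small within numbers 1 and 2 were -0.59 and 2.33 for 10 tested B cell genes, -0.58 and 0.48 for 10 T and NK cell genes, -0.08 and 0.78 for 12 erythroid genes, and -1.34 and 1.67 for 10 genes of mast cells, basophils and eosinophils. They were -1.10 and 0.01 for 12 macrophage and dendritic cell genes, -0.39 and 0.97 for 10 megakaryocyte genes, and -0.58 and 0.84 for 11 endothelial and stromal genes. Summed CPM over all 8 libraries ran from 73.9 to 735.5 for the B cell list and from 44.2 to 2049 for the mast cell list. Pax5, a transcription factor of B cells, was at 0 in 3 libraries, Rag1, of lymphoid progenitors, in 4, and Col3a1 and Lum, of stromal cells, in 5 each.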

How the data were processed

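RNA from 8 libraries in 4 groups of 2 (Small, Medium, Large, All) was analysed from the authors' tables, with groups and numbers read from titles. RSEM 1.3.0, STAR 2.5.3a and SAMtools 1.3 were used with mm10, per the submitters' processing notes. Their roles, the annotation release and the strand setting are not given in the sources used here. Estimated counts per gene were deposited by the authors as tables, already whole numbers and not scaled between libraries. The authors also deposited log2(TPM + 1) values, here turned back into TPM for sums and comparisons between genes.

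The main test was edgeR 4.0.16 (R 4.3.3): TMM scaling, filterByExpr with a minimum count of 10 (16066 genes), robust quasi-likelihood fit, all 8 libraries with group as the single term, 4 residual degrees of freedom, two-sided p with Benjamini-Hochberg adjustment over all tested genes and a threshold of 0.05. Number 2 against number 1 was tested with group and number as terms. DESeq2 1.42.0 and limma 3.58.1 were alternatives. The fitting code was tested on simulated counts that held no effect of the replicate number. In that test DESeq2 and limma were run only without the block. Members were read from the fits to the deposited data. CPM values are TMM-scaled; differences within a number used log2(CPM + 0.5). A count of 3, the floor, was 0.178 to 0.219 CPM, far below every member.

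The numbers were taken as pairs, from the data: deviations of same-numbered libraries from their group means correlated at 0.358 to 0.439 in all 6 pairs of groups. With 2 libraries a group, an exact test cannot give a two-sided p under 0.333.

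Members, lists and named genes were chosen with earlier results of these data known. Named were: the 8 highest and 8 lowest members with at least 5 CPM in Large against Small, 4 and 4 in each step with Medium, 2 and 2 in each comparison with All, up to 10 past the threshold, the 5 most and least abundant, Mrpl12, Mrpl58 and members whose place differs from their symbol or that are paralogs, the 3 most alike pairs, 5 other mitoribosomal genes, and up to 2 per direction and pathway list. The text also names Mrpl39 and Mrpl28, which reached an unadjusted p under 0.05, the promoter partners, the members least alike, and the regulators Nrf1 and Gabpa. Of 50686 identifiers, 50376 had a symbol in GENCODE M21 (GRCm38); the rest held at most 0.131% of a library.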

Additional observations from a re-analysis of the deposited data

How the results depend on the processing

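Each comparison was refitted with RLE size factors, DESeq2, limma-voom, log2(TPM + 1), other filters, only its own libraries, GC and length trends removed, the replicate number as a block, and each library left out; leaving out a library for number 2 against number 1, its limma-voom fit and its GC and length fit were added after seeing the data. With the block, DESeq2 called 18 members in Large against Small (8.82% of all tested genes), 1 in Large against Medium (5.75%) and 19 in Large against All (10.1%). Limma-voom with the block called 2 in Large against Small (1.28%). Limma-trend with the block and the GC and length trends removed called 1 (Mrps2) in Large against All, where it called 272 of 16017 genes. In Large against Small that fit called no member and 29 genes. The block changed no other call of a member. With it the members' edgeR medians for Large were 0.46 against Small, 0.27 against Medium and 0.45 against All. The median of Small against All, -0.01, was 0.01 with DESeq2, RLE size factors or limma-voom with the block, 0.02 with only its 4 libraries or with DESeq2 and the block, 0.03 with limma-voom, 0.04 with no filter or log2(TPM + 1), and 0.05 with the trends removed, with or without the block. Log2(TPM + 1) shifted the median of all tested genes by -0.11 in Large against Small, where members had 0.31 (74 above 0). The subunit ratio, 1.568, was 1.777 by structure and 1.814 from CPM, but 0.895 (0.802 to 0.972) as a ratio of medians. The sums run over 49 Mrpl and 29 Mrps genes, whereas the medians compare the typical gene of each set. These measures therefore answer different questions.

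For Large against Small, Mrpl9 had -0.20 with the trends removed (with or without the block), -0.17 from log2(TPM + 1), and -0.01 with a minimum count of 50, no filter or only its 4 libraries. Mrps31 had -0.07 with the trends removed or from log2(TPM + 1), and with the trends removed Mrpl24 had -0.07 and Mrpl52 -0.03.

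Leaving out each library in turn, medians ran from 0.14 to 0.83 for Large against Small and for Large against All, 0.02 to 0.49 for Large against Medium, -0.16 to 0.53 for Medium against Small, -0.42 to 0.43 for Small against All, -0.12 to 0.57 for Medium against All, and -0.60 to -0.47 for number 2 against number 1, where 23 to 40 members were called. Members above 0 then numbered 63 (without Small 2) to 78 in Large against Small, 46 (without Large 1) to 74 in Large against Medium, 23 (without Small 2) to 74 in Medium against Small, 8 (without All 2 or Small 1) to 67 in Small against All, 16 (without All 2) to 74 in Medium against All, and 65 (without All 2) to 77 in Large against All. In these refits the median over all tested genes lay between -0.10 (Small against All without Small 1) and 0.07 (Large against Small without Small 2). No share of all tested genes above 0 is given for them. Ranges of single members were computed only for the members named for each comparison. Of these, the range crossed or touched 0, for Large against Small, in Mrpl9 (-0.15 to 0.16), Mrpl23 (-0.07 to 0.24), Mrps31 (-0.18 to 0.35), Mrps5 (-0.02 to 0.23), Mrpl3 (-0.08 to 0.36), Mrpl52 (0.00 to 0.35), Mrps18a (-0.03 to 0.68), Mrps18b (-0.11 to 0.68) and Mrps30 (-0.02 to 0.57). Of those named for the steps with Medium it did so in Mrps6 for Large against Medium (-0.22 to 0.06), and in Mrps31 (-0.93 to 0.08), Mrpl44 (-0.50 to 0.03) and Mrps18b (-0.46 to 0.18) for Medium against Small. Of those named against All it did so, for Medium, in Mrps2 (-0.03 to 1.34), Mrpl55 (-0.09 to 1.12) and Mrpl9 (-0.12 to 0.03), and for Large in Mrpl23 (-0.54 to 0.04) and Mrpl52 (-0.30 to 0.02). A group left with 1 library was assumed to vary like the others. The cause of these shifts was not tested. Every member had a mean of at least 9.9 CPM, far above the floor of 3 counts, and 2 libraries a group limit the precision of each comparison.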
